A study of Mus musculus with 19 samples.

Results

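The 10 genes described here are the mouse orthologues of human genes at or near which inherited variants change the risk of late-onset Alzheimer disease, namely Apoe, Clu, Abca7, Bin1, Sorl1, Cd2ap, Inpp5d, Plcg2, Epha1 and Mef2c. They were chosen by gene symbol in the array annotation, and each was read by 1 probe set that carries its symbol alone, out of 19938 genes measured. Hippocampal RNA from C57BL/6J mice 6 months old was hybridised to 19 Affymetrix arrays, which give a log2 signal per gene. Wild-type mice were on plain chow, called control chow below (n = 4) or on the same chow with 375 ppm ibuprofen (n = 5), and their APPSwe-PS1deltaE9 littermates, called APP-PS1 below, were on plain chow (n = 5) or with ibuprofen (n = 5). The diets were given from 3 to 6 months of age. Ibuprofen inhibits the cyclooxygenases, the enzymes that start prostaglandin synthesis. APP-PS1 mice carry 2 transgenes, a mutated amyloid precursor protein and a mutated presenilin, and lay down amyloid plaques. In this line both are driven by the prion protein promoter. All groups keep the mouse's own copies of the 10 genes, so the human risk alleles are not present.

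The 10 proteins act at different steps of how the brain handles lipid and amyloid. Apoe and Clu are secreted lipoprotein components, made largely by astrocytes, that bind lipid and the amyloid peptide, and Abca7 is a membrane transporter that moves lipid out of cells. Bin1, Sorl1 and Cd2ap work in endocytosis and in sorting of cargo, the amyloid precursor protein among it. Inpp5d and Plcg2 are enzymes of receptor signalling in microglia, the macrophages of the brain, Epha1 is a receptor for ephrins, and Mef2c is a transcription factor of neurons and microglia.

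None of the 10 genes differed between genotypes or diets past the threshold, an adjusted p under 0.05 from the limma fit over all genes. Averaged over both diets, the difference between APP-PS1 and wild-type hippocampus lay between -0.06 and 0.04 on the log2 scale for all 10. The 95% intervals of these differences ran from a fold of 0.88 to a fold of 1.13. For ibuprofen averaged over both genotypes the intervals ran from a fold of 0.86 to a fold of 1.15. For scale, App, the gene of the transgene check below, differed by 0.37 ± 0.03 (SE) between genotypes averaged over both diets. That value lies outside the diet-averaged genotype interval of every member.

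The transgene check gave clear values. App, which encodes that precursor, read 13.20 ± 0.03 (SD, n = 4) in wild-type mice and 13.60 ± 0.02 (SD, n = 5) in transgenic mice, both on control chow. The probe set's match to the transgene was not checked. Its difference was 0.40 ± 0.04 (SE, adjusted p = 3.30e-06) there and 0.34 ± 0.03 (SE, adjusted p = 1.73e-05) on ibuprofen chow. Prnp, which encodes the prion protein, differed by 0.67 ± 0.02 (SE, adjusted p = 3.37e-14) over both diets. All 10 hippocampal neuron markers, among them Prox1 of dentate granule cells and Wfs1 of pyramidal cells, lay outside the dimmest 25% of genes. Their mean was 10.23 to 10.62 in APP-PS1 and 10.63 to 10.85 in wild-type mice on ibuprofen chow, with no overlap, and 10.49 to 10.64 and 10.49 to 10.60 on control chow. Pairs of arrays correlated at 0.970 to 0.997 over all probe sets, and 3 arrays stood apart from the others. These were wild-type ibuprofen chow replicate 5 with a median correlation of 0.9739, replicate 1 of the same group with 0.9873, and APP-PS1 control chow replicate 1 with 0.9895. The mean of the choroid plexus markers, whose leading gene is the transthyretin gene Ttr, ran from 7.60 to 10.21 over the arrays, with high and low arrays in every group. In tissue RNA, fewer cells of a type and less RNA per cell cannot be told apart.

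**Figure D1:**
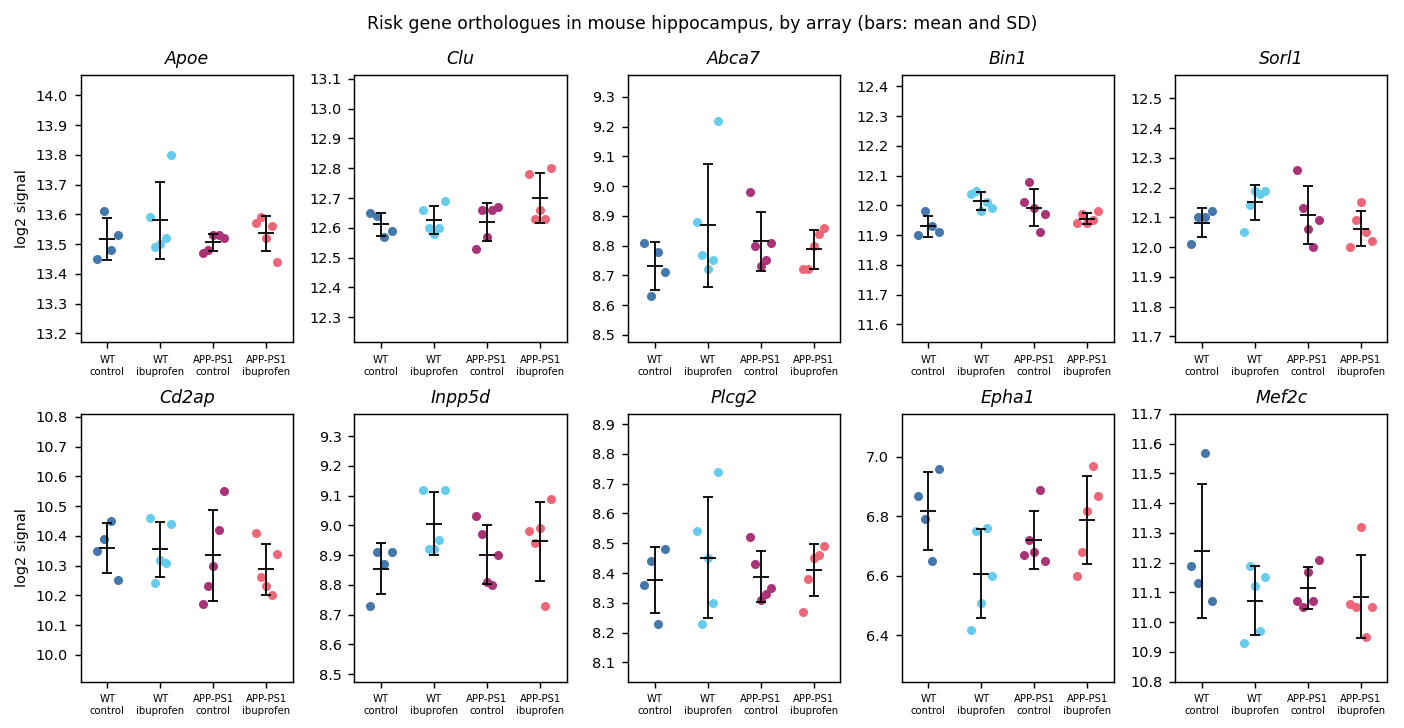
Each panel plots the log2 signal of 1 gene by array, grouped by genotype and diet, with the group mean and SD as bars. All panels span 0.9 log2 units, and apart from Bin1 between genotypes on ibuprofen chow and Inpp5d between diets in wild-type mice the compared groups overlap, with wild-type ibuprofen chow replicate 5 high for Apoe (13.80), Abca7 (9.22) and Plcg2 (8.74).

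Among the lipid carriers, Apoe, the main lipoprotein of brain (probe set 10560624), read 13.45, 13.61, 13.48 and 13.53 in wild-type mice on control chow and 13.59, 13.49, 13.50, 13.52 and 13.80 on ibuprofen chow. In APP-PS1 mice it read 13.47, 13.48, 13.53, 13.53 and 13.52 on control chow and 13.57, 13.59, 13.52, 13.56 and 13.44 on ibuprofen chow. The 4 groups overlapped, and 1 array, wild-type ibuprofen chow replicate 5, lay above all others. The genotype difference of Apoe was -0.01 ± 0.05 (SE, adjusted p = 0.994) on plain chow and -0.04 ± 0.05 (SE, adjusted p = 0.528) on ibuprofen chow. Averaged over the diets its interval was a fold of 0.93 to 1.03. The ibuprofen difference in wild-type mice was 0.06 ± 0.05 (SE) with all arrays and 0.01 ± 0.04 (SE) without replicate 5.

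Clu, the gene of clusterin or apolipoprotein J (probe set 10416057), read 12.65, 12.64, 12.57 and 12.59 in wild-type mice on control chow and 12.66, 12.60, 12.58, 12.60 and 12.69 on ibuprofen chow. In APP-PS1 mice the values were 12.53, 12.66, 12.57, 12.66 and 12.67 on control chow and 12.78, 12.63, 12.66, 12.63 and 12.80 on ibuprofen chow. APP-PS1 ibuprofen chow replicates 1 and 5 were the 2 highest arrays of the series for this gene, and the other 3 of that group lay within the range of the remaining groups. The Clu difference for ibuprofen in APP-PS1 mice was 0.08 ± 0.04 (SE, adjusted p = 0.716), and for genotype on ibuprofen chow 0.07 ± 0.04 (SE, adjusted p = 0.249). The latter was 0.13 ± 0.03 (SE, adjusted p = 0.0267) when arrays were weighted by quality, the single alternative in which a member passed in a comparison of groups. Over the alternatives its adjusted p ran from 0.0267 to 0.475. The 2 high arrays were also high in choroid plexus markers, with marker means of 9.90 and 9.93 against 7.96 to 8.90 in the other 3 arrays of the group. Wild-type ibuprofen chow replicate 5, at a marker mean of 10.15, read 12.69, the highest of its group. APP-PS1 control chow replicate 4, at 10.21, read 12.66, as did replicate 2 of its group at 7.79. Without array weights Clu was called neither with nor without choroid plexus markers as a covariate, so that alternative says nothing on choroid plexus. The part of that tissue in the 2 high values was not tested.

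Abca7, the lipid transporter (probe set 10364601), read 8.81, 8.63, 8.78 and 8.71 in wild-type mice on control chow and 8.88, 8.77, 8.72, 8.75 and 9.22 on ibuprofen chow. It read 8.98, 8.80, 8.73, 8.75 and 8.81 in APP-PS1 mice on plain chow and 8.72, 8.72, 8.80, 8.84 and 8.86 on ibuprofen chow. Its 2 highest values, 9.22 and 8.98, came from 2 of the 3 arrays that stood apart. The ibuprofen difference in wild-type mice was 0.14 ± 0.09 (SE, adjusted p = 0.452) and 0.05 ± 0.07 (SE) without wild-type ibuprofen chow replicate 5.

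Among the trafficking genes, Bin1, which encodes amphiphysin 2, a protein that bends membranes (probe set 10454580), had the smallest spread, with a within-group SD of 0.041 against a median of 0.12 over all genes. It read 11.90, 11.98, 11.93 and 11.91 in wild-type mice on control chow and 12.04, 12.05, 11.98, 12.01 and 11.99 on ibuprofen chow. It read 12.01, 12.08, 11.99, 11.91 and 11.97 in APP-PS1 mice on plain chow and 11.94, 11.97, 11.94, 11.95 and 11.98 on ibuprofen chow. In wild-type mice the ibuprofen arrays lay at the top of the control range or above it, and in APP-PS1 mice they lay within the control range. The difference was 0.08 ± 0.04 (SE, adjusted p = 0.432) in wild-type and -0.04 ± 0.03 (SE, adjusted p = 0.731) in APP-PS1 mice, and the interaction was -0.12 ± 0.05 (SE, adjusted p = 0.214). The interaction of Bin1 kept its sign under every alternative and every left-out array, from -0.15 to -0.09, and passed in none. On ibuprofen chow every APP-PS1 array lay below every wild-type array for this gene alone of the 10, though the closest pair both read 11.98 when rounded. In that comparison 2.29% of all genes had groups that do not overlap. The hippocampal neuron marker mean separated the same arrays in the same direction, and its part in the Bin1 difference was not tested. For genotype on control chow and for ibuprofen in APP-PS1 mice 0 of 10 members had such groups, beside 3.84% and 2.77% of all genes.

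Sorl1, a sorting receptor that steers the amyloid precursor protein away from cleavage (probe set 10592535), ranged from 12.00 to 12.26 over all arrays, with its highest value in APP-PS1 control chow replicate 1. Group means were 12.08 ± 0.05 (SD, n = 4) and 12.15 ± 0.06 (SD, n = 5) in wild-type mice on control and ibuprofen chow. They were 12.11 ± 0.10 (SD, n = 5) and 12.06 ± 0.06 (SD, n = 5) in APP-PS1 mice. All group pairs overlapped, and the largest of the differences between 2 groups, for genotype on ibuprofen chow, was -0.09 ± 0.05 (SE, adjusted p = 0.232). Cd2ap, an adaptor between membrane receptors and actin (probe set 10451004), ranged from 10.17 to 10.55. Its differences between 2 groups lay between -0.07 and -0.01, with adjusted p from 0.526 to 0.988.

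Inpp5d, the inositol phosphatase SHIP1 that restrains receptor signalling in microglia (probe set 10348244), read 8.73, 8.91, 8.87 and 8.91 in wild-type mice on control chow and 9.12, 8.92, 8.92, 8.95 and 9.12 on ibuprofen chow. It read 9.03, 8.97, 8.81, 8.80 and 8.90 in APP-PS1 mice on plain chow and 8.98, 8.94, 8.99, 8.73 and 9.09 on ibuprofen chow. In wild-type mice every ibuprofen array lay above every control array, the closest pair at 8.92 and 8.91, and 2.24% of all genes had groups that do not overlap in this comparison. The difference there was 0.15 ± 0.08 (SE, adjusted p = 0.432), and 0.08 ± 0.07 (SE) without the 3 arrays that stood apart. The 2 highest of the wild-type ibuprofen arrays were among those 3. Their microglia marker means were 10.16 and 10.10, against 9.78 to 9.88 in the other 3 arrays of the group. The part of this marker level in the difference was not tested.

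Plcg2, the phospholipase that acts below Trem2 and other receptors of microglia (probe set 10575799), read 8.36, 8.44, 8.23 and 8.48 in wild-type mice on control chow and 8.54, 8.23, 8.45, 8.30 and 8.74 on ibuprofen chow. It read 8.52, 8.43, 8.31, 8.33 and 8.35 in APP-PS1 mice on plain chow and 8.27, 8.38, 8.45, 8.46 and 8.49 on ibuprofen chow. The groups overlapped throughout, and the 3 highest arrays were the 3 that stood apart. The genotype difference averaged over the diets was -0.02 ± 0.06 (SE, adjusted p = 0.947). The ibuprofen difference in wild-type mice was 0.08 ± 0.09 (SE, adjusted p = 0.657), and 0.00 ± 0.08 (SE) without wild-type ibuprofen chow replicate 5.

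The upstream sequences of the 2 microglial enzymes are shown because 1 of them, Inpp5d, had a called slope on the mean of microglia markers, described below. Such a slope was also called for 14.6% of all genes. They are the 250 bases before the gene start in RefSeq's promoter table, build GRCm38.p6, plus strand, 5′ to 3′. Capitals mark GAGGAA on either strand, the core of the site of PU.1, a factor that sets the identity of microglia and macrophages. Inpp5d lies at chr1:87620062-87620311 and Plcg2 at chr8:117498025-117498274.
Inpp5d: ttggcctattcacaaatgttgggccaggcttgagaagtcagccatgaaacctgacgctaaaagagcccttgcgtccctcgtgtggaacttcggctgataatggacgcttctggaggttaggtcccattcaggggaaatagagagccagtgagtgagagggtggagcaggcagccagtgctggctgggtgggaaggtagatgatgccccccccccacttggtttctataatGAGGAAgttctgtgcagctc
Plcg2: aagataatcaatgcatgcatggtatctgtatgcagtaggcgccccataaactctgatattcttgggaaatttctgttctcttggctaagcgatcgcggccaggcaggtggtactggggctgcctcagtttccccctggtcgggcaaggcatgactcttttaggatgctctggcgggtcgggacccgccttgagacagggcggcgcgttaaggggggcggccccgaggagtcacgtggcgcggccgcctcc

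The motif begins 20 bases before the Inpp5d start and does not occur in the Plcg2 window. It occurs in 23.3% of the 32851 windows of this length in the table, so a match is common, and it is a description of the letters and not of binding. The table held windows for 8 of the 10 members, and 3 of these 8 had the motif in at least 1 window.

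Epha1, the ephrin receptor (probe set 10544417), was the one member in the dimmest 25% of genes. It read 6.87, 6.79, 6.65 and 6.96 in wild-type mice on control chow and 6.42, 6.75, 6.51, 6.76 and 6.60 on ibuprofen chow. It read 6.67, 6.72, 6.68, 6.89 and 6.65 in APP-PS1 mice on plain chow and 6.60, 6.68, 6.82, 6.97 and 6.87 on ibuprofen chow. The lowest values were in ibuprofen-fed wild-type mice, yet all groups overlapped. The difference for ibuprofen was -0.21 ± 0.09 (SE, adjusted p = 0.432) in wild-type mice and 0.06 ± 0.08 (SE, adjusted p = 0.810) in APP-PS1 mice. The interaction was 0.27 ± 0.12 (SE, adjusted p = 0.229), and 0.19 ± 0.13 (SE) without the 3 arrays that stood apart.

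Mef2c, the transcription factor (probe set 10406434), read 11.19, 11.13, 11.57 and 11.07 in wild-type mice on control chow and 10.93, 11.19, 11.12, 10.97 and 11.15 on ibuprofen chow. It read 11.07, 11.05, 11.17, 11.07 and 11.21 in APP-PS1 mice on plain chow and 11.06, 11.05, 11.32, 10.95 and 11.05 on ibuprofen chow. Wild-type control chow replicate 3 lay above all other arrays, and that array also had the highest mean of neocortex markers, 10.11 against 9.69 to 9.81 in the other 3 arrays of its group. The Mef2c difference for genotype on control chow was -0.13 ± 0.09 (SE, adjusted p = 0.934), and -0.02 ± 0.07 (SE) without that array. For ibuprofen in wild-type mice it was -0.17 ± 0.09 (SE, adjusted p = 0.432), and -0.06 ± 0.07 (SE) without it. Wild-type ibuprofen chow replicate 5, at a neocortex marker mean of 10.03, read 11.15, and replicate 2 of its group, at 9.79, read 11.19. Whether cortical tissue in wild-type control chow replicate 3 had a part in these differences was not tested.

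**Figure D2:**
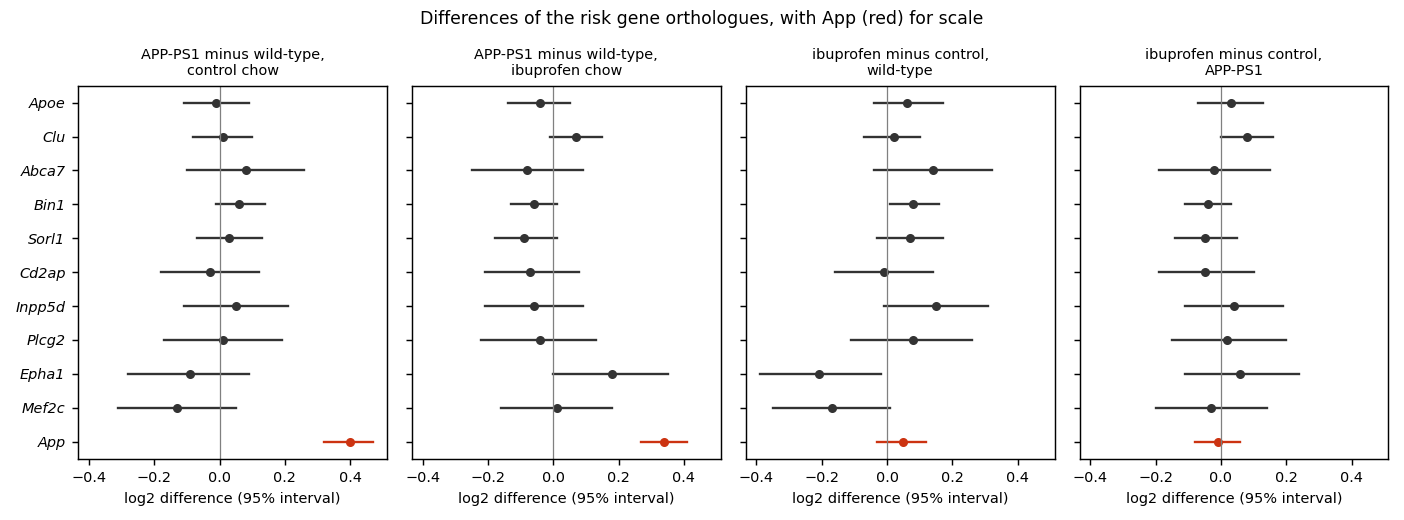
Points are log2 differences and lines 95% intervals from the limma fit, for genotype on each diet and ibuprofen in each genotype, with App in red for scale. No member's point reached the App difference of 0.40 on control chow or 0.34 on ibuprofen chow. The Epha1 interval for genotype on ibuprofen chow ran to 0.35. The largest member difference was -0.21 for Epha1 with ibuprofen in wild-type mice.

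The counts over the members were read against those over all genes. For genotype on control chow 0 of the 10 were called by limma and 0.0100% of all genes were. For genotype on ibuprofen chow 0 of 10 were called beside 0.271% of all genes, and for genotype averaged over the diets 0 of 10 beside 0.0251%. For ibuprofen in either genotype or averaged over both, and for the interaction, 0 of 10 were called beside 0% of all genes, although array weights gave 108 genes for ibuprofen in APP-PS1 mice and 174 for the interaction, with 0 members among them. At an unadjusted limma p under 0.05 the interaction held 2 of 10, Bin1 and Epha1, beside 20.5% of all genes. Ibuprofen in wild-type mice held 2 of 10, the same genes, beside 11.0%, and genotype on ibuprofen chow 1 of 10, Epha1, beside 24.5%. These shares of all genes moved with single arrays, from 2198 genes to between 926 and 4564 for ibuprofen in wild-type mice and from 4876 to between 2958 and 7184 for genotype on ibuprofen chow. The other 4 comparisons held 0 of 10, beside 5.87% for genotype on control chow, 6.48% for ibuprofen in APP-PS1 mice, 7.70% for genotype averaged over the diets and 1.74% for ibuprofen averaged over the genotypes. The comparisons of ibuprofen in wild-type mice, genotype on ibuprofen chow and the interaction share the wild-type ibuprofen chow arrays. The members' median genotype difference was 0.01 with control chow and -0.05 with ibuprofen chow, where the medians over all genes were 0.02 and -0.05. For ibuprofen they were 0.07 in wild-type and 0.00 in APP-PS1 mice, beside 0.05 and -0.02 over all genes.

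Within groups, the signal of each member was set against that of cell type markers. In the main fit no marker list had a larger share of members called than of all genes. For each member the slope on the mean signal of a marker list was fitted with the groups held apart, as log2 units of the gene per log2 unit of the marker mean. The lists covered choroid plexus (16 markers measured), oligodendrocytes (11), microglia (11), astrocytes (11), endothelial cells (9) and neurons (10), and no list holds a member. Marker means of the lists vary together, so the slopes are not separate evidence.

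**Figure D3:**
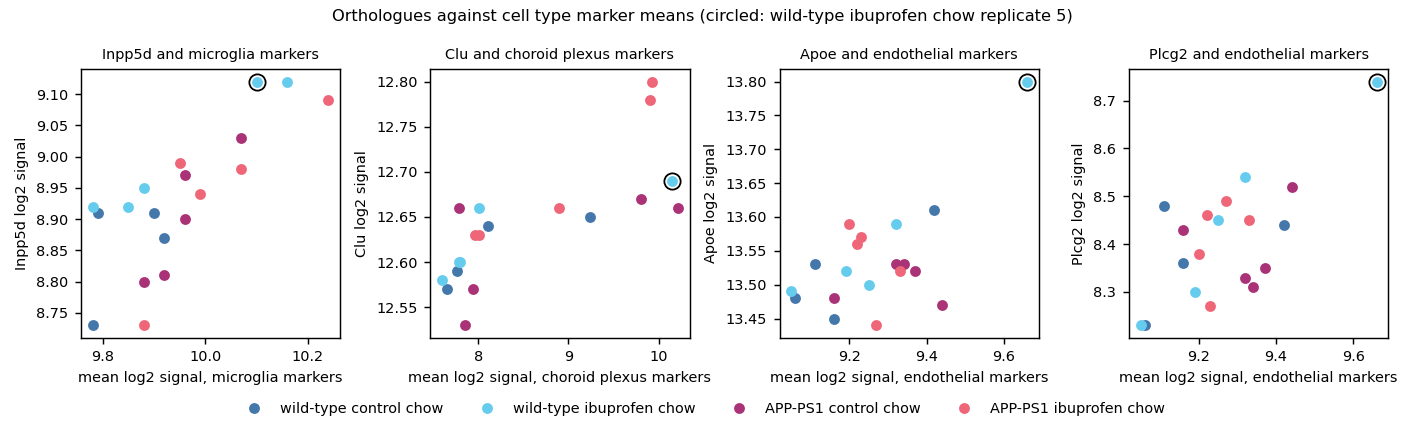
Each point is 1 array, coloured by group, with the log2 signal of a gene against the mean log2 signal of a marker list. Inpp5d is highest in the arrays richest in microglia markers, with no clear rise among arrays whose marker mean was 9.78 to 9.92. Clu is highest in 2 APP-PS1 ibuprofen arrays rich in choroid plexus markers. For Apoe and Plcg2 the circled array, wild-type ibuprofen chow replicate 5, lies apart at the top right.

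Inpp5d had a slope of 0.73 ± 0.18 (SE, adjusted p = 0.0197) on microglia markers, the only member of 10 called there, beside 14.6% of all genes (2908 genes, and 128 without wild-type ibuprofen chow replicate 1). Its slope stayed between 0.58 and 0.86 under the alternatives. The call ended with wild-type ibuprofen chow replicate 1 left out (slope 0.79, adjusted p = 0.0565), without the 3 arrays that stood apart (0.76, adjusted p = 0.937), with quantile normalization (0.58, adjusted p = 0.309) and with array weights (0.77, adjusted p = 0.0643). Abca7 had a slope of 0.56 ± 0.24 (SE, adjusted p = 0.105) and Plcg2 of 0.47 ± 0.26 (SE, adjusted p = 0.190) on the same markers. The named gene whose deviations from the group means were most like those of Inpp5d was C1qa, a complement gene that microglia express, with a Pearson r of 0.88 over the 19 arrays. C1qa is itself 1 of the 11 microglia markers, and the points share the arrays' normalization and tissue makeup.

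Clu had a slope of 0.05 ± 0.01 (SE, adjusted p = 0.0595) on choroid plexus markers and Cd2ap one of 0.07 ± 0.02 (SE, adjusted p = 0.171), with 0 of 10 members called beside 2.07% of all genes. Clu passed with quantile normalization (adjusted p = 0.0493), with the second APP-PS1 control array left out (adjusted p = 0.0248) and with the first wild-type ibuprofen array left out (adjusted p = 0.0498). Cd2ap passed with array weights (slope 0.10, adjusted p = 0.00915). The choroid plexus means lay between 8.90 and 10.21 in 7 arrays and between 7.60 and 8.11 in the other 12, so these slopes rest largely on high against low arrays within groups. Clu and Cd2ap shared Fxyd1, a regulator of the sodium pump, among the 3 genes most like each, at r = 0.84 and 0.86.

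On endothelial markers Apoe had a slope of 0.39 ± 0.09 (SE, adjusted p = 0.0100) and Plcg2 one of 0.64 ± 0.17 (SE, adjusted p = 0.0171), 2 of 10 called beside 25.0% of all genes. The endothelial mean was 9.66 in wild-type ibuprofen chow replicate 5 and at most 9.44 elsewhere. Without that array the slopes were 0.20 (adjusted p = 0.528) and 0.49 (adjusted p = 0.493), and that of Plcg2 also missed the threshold with replicate 2 of that group left out (0.56, adjusted p = 0.0618). On astrocyte markers Plcg2 was called at 1.44 ± 0.43 (SE, adjusted p = 0.0345), 1 of 10 beside 13.9% of all genes, and Apoe had 0.68 ± 0.26 (SE, adjusted p = 0.0768), which passed with quantile normalization (1.14, adjusted p = 0.0430) and with APP-PS1 ibuprofen chow replicate 5 left out (0.94, adjusted p = 0.0137). The Plcg2 call on astrocyte markers ended when wild-type ibuprofen chow replicate 5 (1.03, adjusted p = 0.733), 2 (1.28, adjusted p = 0.0671) or 3 (1.53, adjusted p = 0.0508) was left out, or APP-PS1 control chow replicate 1 (1.41, adjusted p = 0.0683). It also ended with quantile normalization (1.12, adjusted p = 0.0651), median centring (1.21, adjusted p = 0.0652), array weights (0.94, adjusted p = 0.487), without the 3 arrays that stood apart (0.77) and without the 2 arrays farthest from the median (0.87). On oligodendrocyte markers 0 of 10 were called beside 0.0251% of all genes, and Bin1, which oligodendrocytes and neurons express, had a slope of 0.15 ± 0.13 (SE, adjusted p = 0.559). On neuron markers 0 of 10 were called beside 0% of all genes, with Sorl1 at 1.32 ± 0.45 (SE, adjusted p = 0.448) and Cd2ap at -2.48 ± 0.60 (SE, adjusted p = 0.117). The shares over all genes for endothelial and astrocyte markers rested on 1 array, since without wild-type ibuprofen chow replicate 5 the 4977 genes called on endothelial markers became 1 and the 2770 called on astrocyte markers became 0.

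**Figure D4:**
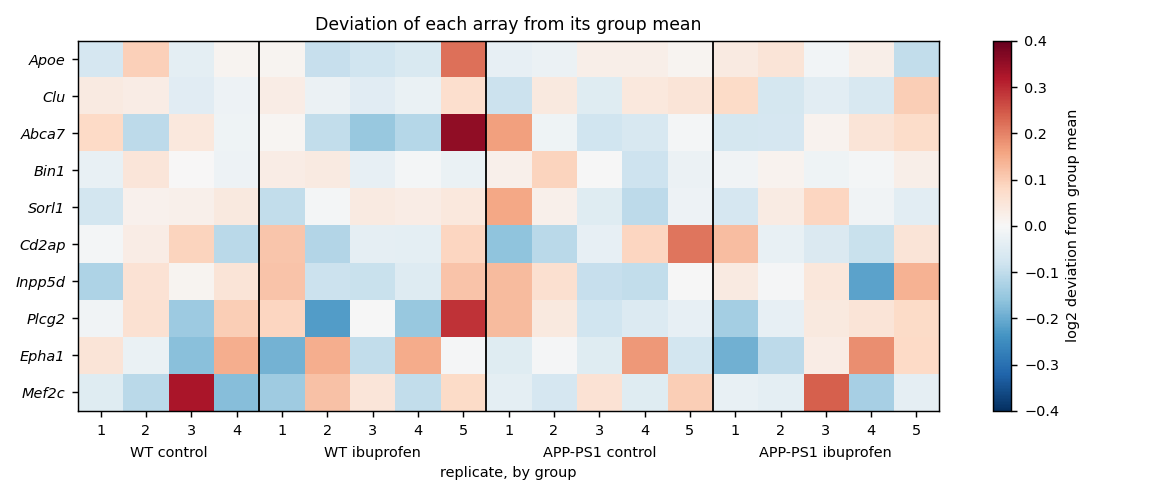
Colours give the log2 deviation of each array from the mean of its group for the 10 genes, red above and blue below. Abca7 and Plcg2 both deviate most in wild-type ibuprofen chow replicate 5, and go opposite ways in the wild-type control arrays. Mef2c stands out in wild-type control chow replicate 3 and APP-PS1 ibuprofen chow replicate 3.

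By the same likeness of deviations, with r over the 19 arrays given as a description, the members fell into a few patterns. Abca7 and Plcg2 were the most alike pair of members (r = 0.71), followed by Clu and Cd2ap (r = 0.65). Wild-type ibuprofen chow replicate 5 deviated most for both Abca7 (0.356) and Plcg2 (0.290), and no r without that array was computed for this pair. Abca7 and Plcg2 deviated in opposite directions in every wild-type control array, and in the same direction in every APP-PS1 ibuprofen array. Sorl1 lay closest to Arnt2, a partner protein of transcription factors of the bHLH-PAS family, at r = 0.96, to Syt13 at 0.85 and to Cadm1, a synaptic adhesion protein, at 0.84. Mef2c lay closest to Tshz3 and Tshz2, zinc finger factors, at 0.85 and 0.84, and to the potassium channel Kcnh5 at 0.84. Apoe lay closest to Smoc1 and Crip1, both at 0.91, and to Pcsk1n at 0.90. These values were 0.82, 0.81 and 0.79 without wild-type ibuprofen chow replicate 5. Bin1 had the weakest neighbours, with Jak1, a cytokine receptor kinase, at 0.71, Pigw at 0.70 and Sstr4, a somatostatin receptor, at 0.69. Epha1 lay closest to Phlda2, Tssk5 and the pepsinogen gene Pga5, at 0.92, 0.92 and 0.89, and to no other member at an r above 0.00. Abca7 lay closest to Ap5s1 (0.94), Rhbdd2 (0.93) and Mroh1 (0.93), and Plcg2 to Cdk20 (0.93), Manbal (0.91) and Erg (0.91). Inpp5d had Sema3c (0.87) and Susd4 (0.86) after C1qa, Clu had Tent5c (0.89) and Tc2n (0.84), and Cd2ap had Slc39a12 (0.87) and Naaladl2 (0.85).

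In 6 lists of genes around the members, 0 genes were called in any of the 7 comparisons of the main fit. Over all genes at most 0.271% were called in a comparison, so 0 calls in these lists say little. Of the orthologues of other risk loci 29 of 30 were measured, with a median genotype difference over both diets of 0.03 beside -0.01 over all genes. Trem2, the lipid receptor of microglia whose signal passes through Plcg2, read 9.29 ± 0.07 (SD, n = 4) in wild-type mice and 9.39 ± 0.10 (SD, n = 5) in transgenic mice on control chow. On ibuprofen chow it read 9.41 ± 0.13 (SD, n = 5) and 9.56 ± 0.09 (SD, n = 5), and its average genotype difference was 0.13 ± 0.05 (SE, adjusted p = 0.583). Grn, the progranulin gene, gave 0.12 ± 0.05 (SE, adjusted p = 0.583) and Tspan14 0.13 ± 0.06 (SE, adjusted p = 0.613).

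Of 22 genes of microglial receptor signalling, 20 were measured and 6 had an unadjusted limma p under 0.05 for genotype averaged over the diets, beside 7.70% of all genes, with a list median of 0.05 beside -0.01. On control chow 2 of 20 did, beside 5.87%, on ibuprofen chow 8 of 20, beside 24.5%, and for the interaction 0 of 20, beside 20.5%. Clec7a, a lectin receptor, gave 0.22 ± 0.05 (SE, adjusted p = 0.232), Tyrobp, the adaptor of Trem2, 0.19 ± 0.07 (SE, adjusted p = 0.515) and Csf1r, the receptor microglia need to survive, 0.13 ± 0.04 (SE, adjusted p = 0.436). The difference of Inpp5d in the same comparison was 0.00, with an interval of -0.11 to 0.11, and that of Plcg2 -0.02, with an interval of -0.14 to 0.11. Clec7a's interval was 0.11 to 0.34, and whether these genes differ from each other in their response was not tested. Clec7a, Tyrobp and Csf1r were named because they had the smallest p of the list for this comparison. Inpp5d and Plcg2 were members whatever their p, so a contrast with the named genes is partly built in by that choice. The signal of Clec7a was also low, with group means of 6.47 to 6.74.

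Of 35 endocytosis and retromer genes 34 were measured, with a median of 0.01 for the same average. Bin2, the relative of Bin1 that leukocytes express, gave 0.21 ± 0.07 (SE, adjusted p = 0.453), the retromer subunit Vps35 0.10 ± 0.04 (SE, adjusted p = 0.613) and the clathrin adaptor subunit Ap2a2 0.07 ± 0.03 (SE, adjusted p = 0.613). Of 22 lipid transport genes 20 were measured, with a median of 0.02, and Rxra, the partner of the nuclear receptors that drive Apoe, gave -0.11 ± 0.05 (SE, adjusted p = 0.613). In that list Lcat gave 0.08 ± 0.05 (SE, adjusted p = 0.694) and Lrpap1 0.06 ± 0.04 (SE, adjusted p = 0.697). For ibuprofen in wild-type mice 18 of these 20 lay above 0, with a median of 0.13, where 66.8% of all genes lay above 0, with a median of 0.05. For genotype on control chow, which shares the wild-type control arrays, 18 of 20 also did, beside 57.9% of all genes. The medians there were 0.09 for the list and 0.02 over all genes. For ibuprofen in APP-PS1 mice 5 of 20 lay above 0, beside 41.8% of all genes. Without the 3 arrays that stood apart the median over all genes for ibuprofen in wild-type mice was 0.00, and the list was not recomputed there.

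Of 21 Eph receptors and ephrins 20 were measured, with a median of -0.02. Epha7, an Eph receptor of neurons, came closest to a call, at -0.24 ± 0.05 (SE, adjusted p = 0.0520) for genotype on ibuprofen chow and 0.11 ± 0.06 (SE, adjusted p = 0.856) on control chow. It read 11.40 ± 0.08 (SD, n = 4) and 11.61 ± 0.04 (SD, n = 5) in wild-type mice on control and ibuprofen chow, and 11.51 ± 0.13 (SD, n = 5) and 11.37 ± 0.05 (SD, n = 5) in APP-PS1 mice. The hippocampal neuron marker mean was also lower in APP-PS1 mice on ibuprofen chow, and its part in the Epha7 difference was not tested. Efnb2 gave -0.11 ± 0.06 (SE, adjusted p = 0.680) and Efna5 -0.16 ± 0.10 (SE, adjusted p = 0.687) for genotype averaged over the diets. Of 11 MEF2 factors and regulators 10 were measured, with a median of -0.07. Camk4, a calcium-activated kinase upstream of MEF2, gave -0.09 ± 0.03 (SE, adjusted p = 0.588), Hdac9, a histone deacetylase that binds MEF2, -0.10 ± 0.04 (SE, adjusted p = 0.595) and Hdac7 -0.09 ± 0.05 (SE, adjusted p = 0.680). By diet, the genotype difference on control and ibuprofen chow was 0.02 and -0.19 for Camk4, -0.03 and -0.18 for Hdac9, and -0.10 and -0.08 for Hdac7. The part of the lower hippocampal neuron marker mean on ibuprofen chow in the Camk4 and Hdac9 differences was not tested.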

How the data were processed

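The authors deposited log2 values per probe set, produced with Partek 6.5 and RMA according to the submitters' processing notes. Settings, build and annotation are not given in the sources used here. The deposited table held 35556 probe sets, with values from 3.46 to 14.80 and array medians from 8.06 to 8.14, and scanner files were not used here. Each gene took the probe set with its symbol alone and the highest mean, which gave 19938 genes. Each of the 10 members had a single such probe set, and all 10 matched a RefSeq entry by Entrez number.

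All 19 arrays entered a limma model of the 4 group means (limma 3.58.1, R 4.3.3), moderated with a trend on mean signal and with 15 residual degrees of freedom. Tests were two-sided, with Benjamini-Hochberg adjustment over the 19938 genes. Slopes came from that model with a marker mean added. SE is limma's standard error and SD the standard deviation over arrays. The labels do not say whether arrays are separate animals, nor give sex, litter or scan date, so p-values measure the spread between these samples, and the number of arrays limits the precision.

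The members and lists were chosen with earlier results of these data known. Genes named beside the members were those of each list past the threshold and the 3 with the smallest p for genotype averaged over the diets, App, Prnp and Ttr as checks, and the 3 most like each member. Alternatives were quantile normalization, median centring, a filter on dim genes, mean probe sets, moderation without a trend or robust, array weights, fitting just the groups compared, the replicate block, choroid plexus or oligodendrocyte markers as a covariate, and leaving arrays out. Figures used Python 3.11.15 and matplotlib 3.10.9.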

Additional observations from a re-analysis of the deposited data

Results flagged for a closer look

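In 2 of 40 combinations of member and group, 1 array lay far from the others by Dixon's test at its 95% critical value, and chance flags about 5% of such groups. Epha1 read 6.89 in APP-PS1 control chow replicate 4, where the nearest of the other 4 arrays read 6.72. Mef2c read 11.32 in APP-PS1 ibuprofen chow replicate 3, where the nearest read 11.06. That array had the highest mean of striatum markers in its group, 9.29 against 9.01 to 9.17, and a neocortex marker mean of 9.72 against 9.53 to 9.72. The part of neighbouring tissue in the Mef2c value was not tested.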

How the results depend on the processing

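In the 7 comparisons of groups, 0 of 10 members were called in every alternative and left-out array (0 to 0 in each comparison), with 1 exception, since Clu made it 1 for genotype on ibuprofen chow with array weights. Of 2133 recomputed member differences, 2132 kept their side of the threshold, and 121, none of them called, changed sign. Epha1 could not be tested with the dimmest 25% of genes left out. Members called for the slope on choroid plexus markers were 1 with quantile normalization and 1 with array weights, and 0 to 1 over the left-out arrays. For oligodendrocyte markers the count was 1 with array weights (Epha1) and 0 to 0 over the left-out arrays, and for neuron markers 0 throughout. For microglia markers it was 0 with quantile normalization, 0 with array weights, 0 without the 3 arrays that stand apart, 3 without the 2 arrays farthest from the median and 0 to 2 over the left-out arrays. For astrocyte markers it was 0 with median centring, with array weights, without the 3 arrays and without the 2 farthest, and 0 to 2 over the left-out arrays. For endothelial markers it was 0 with quantile normalization, with array weights, without the 3 arrays and without the 2 farthest, and 0 to 3 over the left-out arrays. The causes were not tested.

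Counts over all genes moved with the settings. A count over 10 members had little room to move, since in the main fit at most 0.271% of all genes were called in a comparison of groups. For genotype on ibuprofen chow 54 genes were called, 7.41% of them higher, against 50 with 18.0% higher after quantile normalization, 1004 with 32.5% higher with array weights, 128 with 7.03% higher without the dimmest 25%, 91 with 8.79% higher with robust empirical Bayes, 33 with 39.4% higher without the 3 arrays, 5 with 60.0% higher in the fit of these groups alone and 10 to 1490 over the left-out arrays. For genotype averaged over the diets it was 5, against 8 after quantile normalization, 342 with array weights and 3 to 52 over the left-out arrays, and for genotype on control chow 2, against 3 after quantile normalization, 8 with array weights and 2 to 4 over the left-out arrays. For ibuprofen in APP-PS1 mice 0 genes became 108 with array weights and up to 3 over the left-out arrays, and for the interaction 174 and up to 13. Genes at an unadjusted limma p under 0.05 for ibuprofen in wild-type mice were 2198, against 692 without the 3 arrays and 926 to 4564 over the left-out arrays. For genotype on ibuprofen chow they were 4876, against 1985 without the 3 arrays, and for the interaction 4087, against 1836 without them and 1236 with oligodendrocyte markers as a covariate. Deviations of same-numbered arrays correlated at -0.27 to 0.60. In none of the 4 pairs of groups compared was every pair of arrays above 0.1, so the numbers were not taken as pairing. They were all above it between wild-type ibuprofen and APP-PS1 control chow (0.25 to 0.41 over 5 pairs, own number best in 4) and between wild-type control and APP-PS1 ibuprofen chow (0.12 to 0.60 over 4 pairs, own number best in 2), groups that differ in both factors. With the replicate block 0 members were called in each comparison, and 197 genes for genotype on ibuprofen chow. Array number and low signal, as for Epha1, limit what could be seen.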
